A study of Homo sapiens with 6 samples.

Results

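The 10 genes described here encode heat shock proteins and co-chaperones of the cytosol: HSPA1A, HSPA1B, HSPA6, HSPA8, HSPH1, DNAJB1, HSP90AA1, HSP90AB1, HSPB1 and BAG3. They were taken by name from a table of 57914 genes, and all 10 passed the filter on low counts that left 17047 genes for testing. RNA came from A375 cells, an established human melanoma line, grown in high-glucose DMEM with 10% fetal calf serum and 2 mM L-glutamine. Live cells were stained with Aldefluor, a substrate that aldehyde dehydrogenases (ALDH) turn into a retained fluorescent product, and were sorted. The ALDH_High group was the 5% of cells with the highest signal and the ALDH_Low group the 5% with the lowest, with 3 libraries in each, numbered 1 to 3. Cells of both groups were thus stained and passed through a sorter, and no unsorted or heat-treated sample was compared. The labels do not say whether the libraries of a group came from separate cultures or sorts, so p-values measure only the spread between these libraries.

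Chaperones bind unfolded or unstable proteins and help them to fold, to stay soluble or to be passed on for degradation. HSP70 proteins hold a client in cycles of ATP binding and hydrolysis. J-domain proteins such as DNAJB1 bring the client and start hydrolysis, and exchange factors such as HSPH1 and BAG3 release the nucleotide. HSP90 acts later, on clients such as kinases and steroid receptors, and small heat shock proteins such as HSPB1 hold aggregating proteins without using ATP. When proteins unfold, the transcription factor HSF1 forms trimers, binds heat shock elements, which are inverted repeats of the unit nGAAn, and raises transcription of the stress-inducible genes. HSPA8 and HSP90AB1 are the constitutively expressed counterparts of inducible HSP70 and HSP90. Melanoma cells, like many tumour cells, are known to depend on HSP90 for the stability of oncogenic kinases.

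The promoter stretches that carry letters of the heat shock element are shown first, because they set the inducible genes beside the constitutive ones. RefSeq promoter windows on GRCh38.p14, from 250 bases before to 50 bases after an annotated start, were found for 10 of 10 genes (15 windows). They were searched on both strands for GAANNTTC and TTCNNGAA (2 units each) and for a 3-unit match, which is GAANNTTC continued by NNGAA and holds both of the former. Capitals mark the match named before each stretch, and sequences run 5′ to 3′ on the strand of the gene. In HSPA1A (chr6:31815417-31815464, plus strand) and HSPA1B (chr6:31827613-31827660, plus strand) a 2-unit match lay 106 and 105 bases before the start.
HSPA1A: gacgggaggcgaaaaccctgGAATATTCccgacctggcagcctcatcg
HSPA1B: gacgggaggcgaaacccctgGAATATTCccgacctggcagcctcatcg
In HSPA6 (chr1:161524446-161524498, plus strand) a 3-unit match lay 74 bases before the start, and a 2-unit match that is not shown lay 180 bases before it.
HSPA6: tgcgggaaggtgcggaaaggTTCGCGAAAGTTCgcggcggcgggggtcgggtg
DNAJB1 (chr19:14518447-14518494 and chr19:14518417-14518464, minus strand) held a pair of 2-unit matches, 77 and 47 bases before the start, and HSPB1 (chr7:76302471-76302518, plus strand) held one 182 bases before it.
DNAJB1 at 77: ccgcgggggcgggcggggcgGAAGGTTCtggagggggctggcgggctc
DNAJB1 at 47: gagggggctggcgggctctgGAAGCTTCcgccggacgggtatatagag
HSPB1: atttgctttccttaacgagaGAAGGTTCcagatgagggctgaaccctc
Constitutive HSPA8 (chr11:123062346-123062374 and chr11:123062171-123062199, minus strand) held 3-unit matches 230 and 55 bases before its start. Both HSPA8 stretches overlapped an exon of another annotated HSPA8 transcript. HSP90AA1 (chr14:102087100-102087152, minus strand) held a 3-unit match 88 bases before its start. A further 2-unit match, 68 bases before that start, is in lower case in the HSP90AA1 stretch.
HSPA8 at 230: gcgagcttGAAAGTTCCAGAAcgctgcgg
HSPA8 at 55: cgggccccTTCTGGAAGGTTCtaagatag
HSP90AA1: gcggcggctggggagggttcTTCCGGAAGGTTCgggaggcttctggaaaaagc
The 3-unit matches of HSP90AB1 (chr6:44247758-44247810 and chr6:44247811-44247863, plus strand) lay in an intron of its representative (MANE) transcript, 165 and 112 bases before another annotated start that is 842 bases downstream of the MANE start.
HSP90AB1 at 165: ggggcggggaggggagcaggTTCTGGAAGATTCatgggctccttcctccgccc
HSP90AB1 at 112: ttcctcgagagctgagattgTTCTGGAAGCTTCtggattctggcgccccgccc

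A 3-unit match was present in 4 of the 15 windows, from 4 of 10 genes (HSPA6, HSPA8, HSP90AA1 and HSP90AB1), and in 0.49% of all 35116 windows. For HSP90AB1 this was the window of the downstream start and not that of the MANE start. A 2-unit match of either kind was present in 9 of the 15 windows, from 8 of 10 genes, and in 13.5% of all windows. TATAAA was found in 2 of the 15 windows, those of HSPA1A and HSPA1B, and in 7.33% of all windows. None of these elements was found in the windows of BAG3 or HSPH1, and the HSPH1 window belongs to a start 484 bases from its MANE start. Both inducible and constitutive genes thus carried matches, and the 3-unit match was not limited to the inducible ones. A match describes letters and is not evidence that a factor was bound in these cells.

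HSPA1A (ENSG00000204389, chromosome 6, 31815543 to 31817946) and HSPA1B (ENSG00000204388, chromosome 6, 31827738 to 31830254) are neighbouring copies that encode the same inducible HSP70, and their coding sequences differed at 4 of 1926 bases in GENCODE 44. Of all stretches of 100 bases in the HSPA1A transcript, 72.4% also occurred in that of HSPA1B, so the deposited counts can divide reads between them and their separate values are uncertain. HSPA6 and HSPA8 are further away, with 80.7% and 73.9% of aligned coding bases identical to HSPA1A and no shared stretch of 50 bases. Bases 31 to 90 of the HSPA1A coding sequence and the aligned 60 bases of the others show this, with capitals where a base differs from HSPA1A (0, 10 and 11 bases).
HSPA1A coding: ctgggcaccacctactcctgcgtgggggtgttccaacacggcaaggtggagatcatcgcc
HSPA1B coding: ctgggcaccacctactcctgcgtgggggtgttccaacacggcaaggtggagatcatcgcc
HSPA6 coding: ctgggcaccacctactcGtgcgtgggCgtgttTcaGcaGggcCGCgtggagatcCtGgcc
HSPA8 coding: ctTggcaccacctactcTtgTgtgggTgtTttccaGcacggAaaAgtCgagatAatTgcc
HSP90AA1 and HSP90AB1 shared 76.0% of aligned coding bases and no stretch of 50 bases, so reads of that length or longer separate them.

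Total counts per library lay between 26692868 and 37830603, and the 10 genes took between 1.22% and 1.42% of them. The lineage of the cells was checked on 9 melanocyte lineage markers, of which 5 could be tested. SOX10, S100B and CSPG4, which melanoma cells express, rose (log2 fold changes of 1.79, 4.28 and 0.88 in ALDH_High over ALDH_Low, with at least 18 counts in every library), and MITF, the regulator of pigment cells, fell (-0.92, edgeR adjusted p 0.00667, 329 to 1235 counts). CSPG4 did not pass without ALDH_Low library 3 (edgeR adjusted p 0.0644). PMEL did not pass (-0.31, 5 to 19 counts), and the pigment genes DCT, TYRP1, TYR and MLANA had at most 10, 11, 2 and 3 counts. Of the 3 leukocyte markers CD14 fell (-1.96, edgeR adjusted p 0.0142) at no more than 31 counts in any library, but not without ALDH_High library 2 or ALDH_Low library 2 or 3 (0.0599 to 0.0650). Of the 3 keratinocyte and epithelial markers KRT5 fell (-3.63, edgeR adjusted p 0.000898) at no more than 108 counts, while KRT14 had up to 395. No endothelial marker exceeded 35 counts. The part of these markers in the values of the chaperone genes was not tested. These are bulk libraries, so more RNA per cell and more cells with that RNA cannot be told apart.

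None of the 10 genes passed the threshold for a difference between ALDH_High and ALDH_Low (edgeR quasi-likelihood test, adjusted p below 0.05). The share of all genes tested that passed was 20.6%, with 10.8% higher and 9.83% lower in ALDH_High. At an unadjusted p below 0.05, 1 of the 10 passed (HSPA8), against 32.3% of all genes. DESeq2 and limma on log2(TPM + 1) also called 0 of the 10, where they called 3852 and 2446 genes in all. The median log2 fold change was -0.075 over the 10 genes and -0.013 over all genes tested, and 7 of the 10 estimates were below 0. In counts scaled to library size (CPM), the groups did not overlap for 2 of the 10 genes, HSPA8 and HSP90AB1. Of all genes tested, 37.8% did not overlap in CPM. In the deposited TPM, which is also scaled for transcript length, the groups overlapped for both genes. Without ALDH_High library 1, 4 of the 10 passed: HSPA1A, HSPA1B and HSPB1 lower and HSPA8 higher in ALDH_High, where 23.7% of all genes passed. Without a filter on low counts, 2 of the 10 passed (HSPA1A and HSPA1B, lower), where 12.9% of all genes passed.

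**Figure D1:**
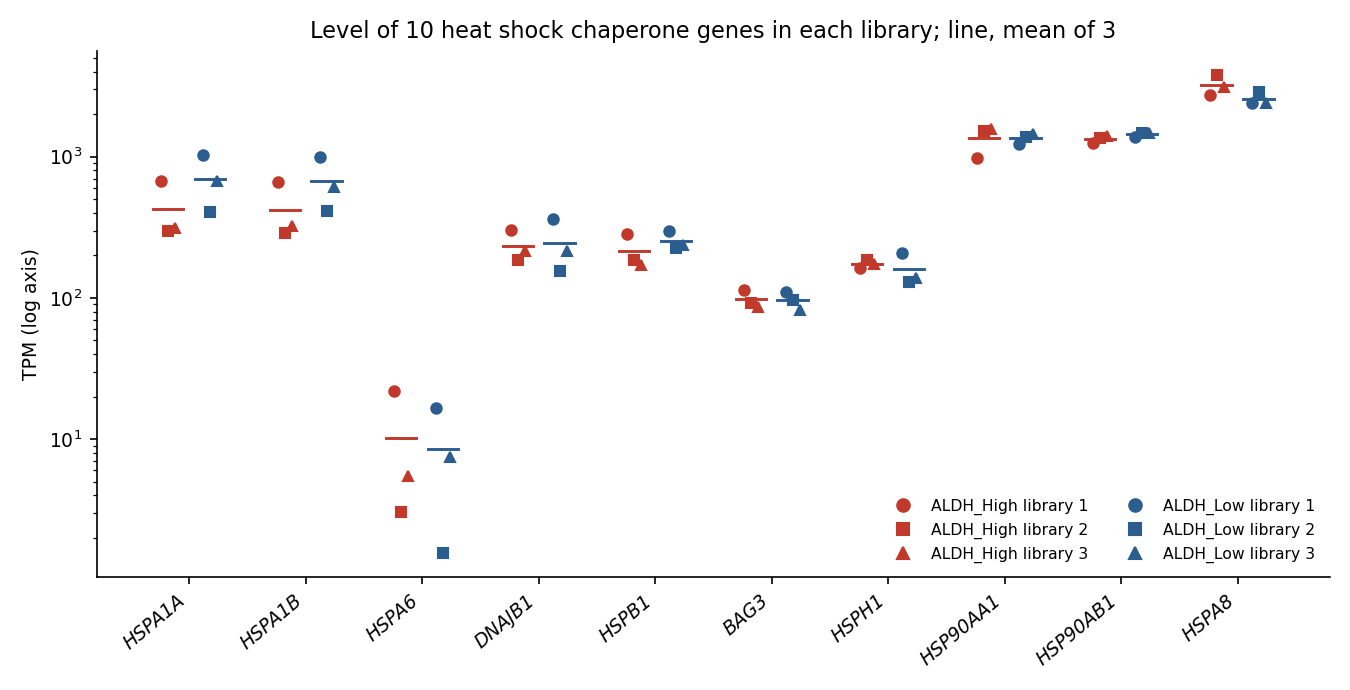
TPM (transcript abundance scaled for length and library size, log axis) of each of the 10 genes in each library; colour marks the group, symbol the library number, and a line the mean of 3. HSPA8 is the highest in all 6 libraries and HSPA6 the lowest, and circles (library 1) lie well above the other libraries of their group for HSPA1A, HSPA1B, HSPA6 and DNAJB1.

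Per unit of transcript length, HSPA8 was the most abundant of the 10 in all 6 libraries, and HSPA6 the least. TPM of HSPA8 was 2728, 3813 and 3139 in ALDH_High libraries 1, 2 and 3 and 2384, 2863 and 2419 in ALDH_Low libraries 1, 2 and 3, which was between 29.8% and 48.1% of the summed TPM of the 10 genes. HSP90AB1 (1242 to 1477 TPM) and HSP90AA1 (982 to 1569 TPM) overlapped. Next came HSPA1A (297 to 1022 TPM) and HSPA1B (288 to 998 TPM), which could not be ordered. DNAJB1 (156 to 361 TPM), HSPB1 (172 to 299 TPM) and HSPH1 (129 to 210 TPM) overlapped as well. BAG3 was ninth in all 6 libraries (82.2 to 115 TPM), and HSPA6 was at 1.56 to 21.96 TPM. As deposited, the constitutive form was thus the larger pool within the HSP70 family in every library. How reads shared by HSPA1A and HSPA1B were counted is not known, and leaving such reads out would lower the values of both. Relative to its level, HSPA6 ranged the most.

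HSPA1A was measured at 1264, 507 and 524 CPM (counts scaled to library size with TMM factors) in ALDH_High libraries 1, 2 and 3, and at 1818, 721 and 1271 CPM in ALDH_Low libraries 1, 2 and 3. HSPA1B followed closely, at 1243, 493 and 538 CPM in ALDH_High and 1778, 728 and 1144 CPM in ALDH_Low. Library 1 was the highest of its group in both genes and both groups, and ALDH_High library 1 lay inside the ALDH_Low range, so the groups overlapped. Means were 765 ± 432 against 1270 ± 549 CPM for HSPA1A and 758 ± 420 against 1217 ± 529 CPM for HSPA1B (SD, n = 3). The log2 fold change of HSPA1A (ALDH_High over ALDH_Low) was -0.73 (SE 0.38, 95% confidence interval -1.59 to 0.12, edgeR adjusted p 0.225), with p = 0.2 by exact permutation of the libraries (two-sided), whose floor for 3 against 3 is 0.1. That of HSPA1B was -0.68 (SE 0.38, edgeR adjusted p 0.248). With both genes summed into 1 row, which removes the question of how reads were divided, the values were 2506, 999.9 and 1062 CPM against 3596, 1449 and 2415 CPM, and the log2 fold change was -0.71 (interval -1.55 to 0.14, edgeR adjusted p 0.235). The interval holds both a sizeable decrease and no difference. The call was not stable: both genes also passed with all 6 libraries when no low-count filter was applied, and without ALDH_High library 1, where the log2 fold changes were -1.28 for HSPA1A (edgeR adjusted p 0.0172) and -1.22 for HSPA1B (0.0192). Without ALDH_Low library 1 they were -0.37 and -0.29. With both of these libraries left out they were -0.93 (edgeR adjusted p 0.0212) and -0.84 (0.0157), in a comparison where 22.8% of all genes passed.

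HSPA6 (ENSG00000173110, chromosome 1, 161524540 to 161526894) encodes HSP70B′, an HSP70 known to be nearly silent without stress. It had 1010, 172 and 297 counts in ALDH_High libraries 1, 2 and 3 and 1089, 80 and 376 counts in ALDH_Low libraries 1, 2 and 3, or 39.8, 4.98 and 8.71 CPM against 28.2, 2.68 and 13.5 CPM. The RNA was thus detected in every library, and the highest library exceeded the lowest by 8.0-fold within ALDH_High and by 10.6-fold within ALDH_Low. Groups overlapped over most of their ranges, with means of 17.8 ± 19.1 and 14.8 ± 12.8 CPM (SD, n = 3). The log2 fold change was 0.25 with a wide interval (-1.54 to 2.04, edgeR adjusted p 0.871), and it turned to -1.11 without ALDH_High library 1. The near copy HSPA7 had at most 3 counts in any library and was not tested. HSPA1L, a testis-type HSP70 gene next to HSPA1A on the opposite strand, had between 16 and 67 counts (log2 fold change 0.62, edgeR adjusted p 0.312).

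HSPA8 (ENSG00000109971, chromosome 11, 123057489 to 123063230), the constitutive HSC70, was at 4072, 5143 and 4133 CPM in ALDH_High and at 3352, 4016 and 3607 CPM in ALDH_Low libraries 1, 2 and 3. In CPM the groups did not overlap, but the gap between them was narrow, from 4072 CPM in ALDH_High down to 4016 CPM in ALDH_Low. In TPM they overlapped, with ALDH_High library 1 at 2728 and ALDH_Low library 2 at 2863. Means were 4449 ± 601 and 3658 ± 335 CPM (SD, n = 3). The log2 fold change was 0.28 (SE 0.13, interval 0.0016 to 0.56), with an unadjusted p of 0.0489 and an edgeR adjusted p of 0.153, which did not pass. It passed by a small margin without ALDH_High library 1 (0.36, edgeR adjusted p 0.0492). The direction was opposite to that of HSPA1A and HSPA1B, whose estimates were negative. Summed TPM of HSPA1A and HSPA1B relative to HSPA8 was 0.486, 0.154 and 0.203 in ALDH_High and 0.847, 0.285 and 0.529 in ALDH_Low libraries 1, 2 and 3. This ratio of inducible to constitutive HSP70 was below 1 everywhere in the TPM as deposited. It was highest in library 1 of each group, and overlapped between groups through ALDH_High library 1.

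**Figure D2:**
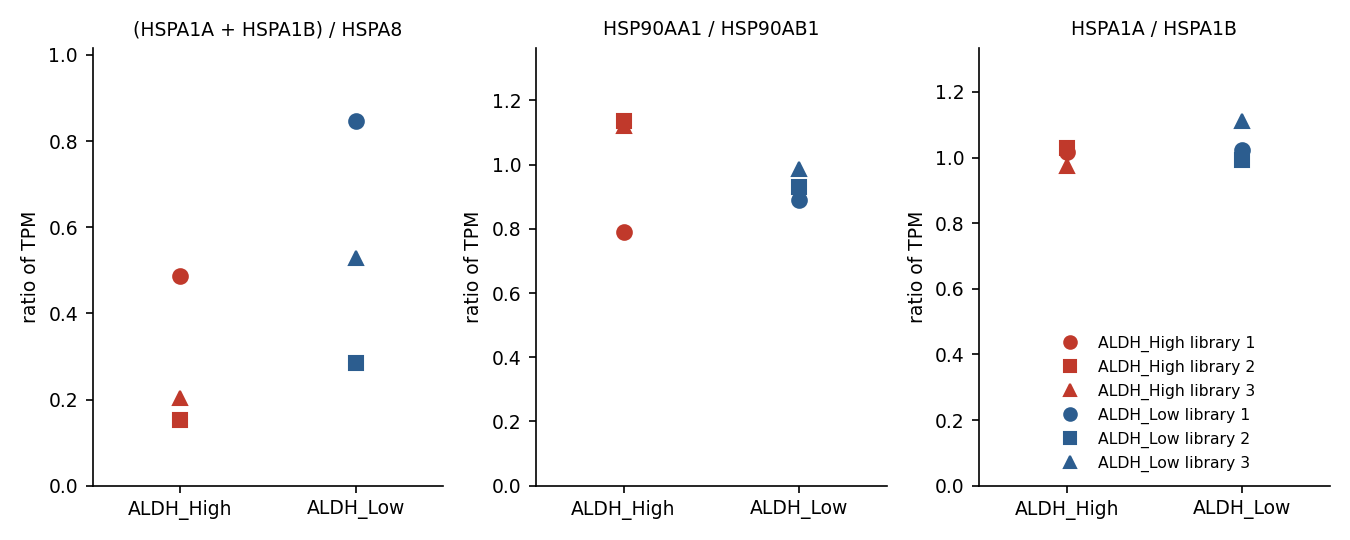
Ratios of TPM within each library by group: inducible HSPA1A plus HSPA1B to constitutive HSPA8, HSP90AA1 to HSP90AB1, and HSPA1A to HSPA1B; every axis starts at 0. The first ratio spans 0.154 to 0.847, the second is lowest in library 1 of both groups, and the third stays between 0.976 and 1.11.

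The partners of HSP70 varied between libraries but not detectably between groups. DNAJB1 (ENSG00000132002, chromosome 19, 14514769 to 14560391), the class B J-domain protein of inducible HSP70, was at 500, 276 and 311 CPM in ALDH_High and at 562, 243 and 356 CPM in ALDH_Low. Library 1 was again the highest and library 2 the lowest of each group, as for HSPA1A, HSPA1B and HSPA6. Its log2 fold change was -0.10 (SE 0.29, interval -0.75 to 0.56, edgeR adjusted p 0.862), and its sign turned without ALDH_High library 2 or 3 or without ALDH_Low library 1. HSPH1 (ENSG00000120694, chromosome 13, 31134973 to 31162388), the HSP110 exchange factor, was steady in ALDH_High at 359, 370 and 340 CPM and spread in ALDH_Low at 435, 268 and 304 CPM. Both its lowest and its highest value lay in ALDH_Low, and the log2 fold change was 0.086 (SE 0.17, edgeR adjusted p 0.774). The 185 genes of chromosome 13 averaging 5 CPM or more had a median log2 fold change of 0.37, and its part in the value of HSPH1 was not tested. BAG3 (ENSG00000151929, chromosome 10, 119651380 to 119677819), an exchange factor that links HSP70 to small heat shock proteins and autophagy, was at 210, 152 and 140 CPM in ALDH_High and 189, 166 and 151 CPM in ALDH_Low. Its means of 167 ± 37.7 and 169 ± 19.4 CPM (SD, n = 3) were nearly equal (log2 fold change -0.012, interval -0.37 to 0.35, edgeR adjusted p 0.973), and the sign turned with DESeq2 and limma.

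HSP90AA1 (ENSG00000080824, chromosome 14, 102080742 to 102139699), the inducible HSP90 alpha, was at 2466, 3477 and 3476 CPM in ALDH_High and at 2896, 3245 and 3634 CPM in ALDH_Low libraries 1, 2 and 3. Unlike the inducible HSP70 genes, it was lowest in library 1 of both groups, and so was HSPA8. The log2 fold change was -0.054 (SE 0.15, interval -0.39 to 0.28, edgeR adjusted p 0.850), and it turned to 0.11 without ALDH_High library 1. HSP90AB1 (ENSG00000096384, chromosome 6, 44246166 to 44253888), the constitutive HSP90 beta, was at 2584, 2533 and 2570 CPM in ALDH_High and at 2695, 2886 and 3055 CPM in ALDH_Low. Here every ALDH_High library was lower in CPM than every ALDH_Low library, with means of 2562 ± 26.3 and 2879 ± 180 CPM (SD, n = 3). In TPM the groups overlapped, with ALDH_High library 3 at 1401 and ALDH_Low library 1 at 1376. The difference was small (log2 fold change -0.17, SE 0.10, interval -0.39 to 0.053) and did not pass (edgeR adjusted p 0.285; exact permutation p = 0.1, the smallest possible). TPM of HSP90AA1 relative to HSP90AB1 was 0.790, 1.14 and 1.12 in ALDH_High and 0.890, 0.931 and 0.985 in ALDH_Low. The 2 highest ratios and the lowest one were all in ALDH_High, so the groups overlapped.

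HSPB1 (ENSG00000106211, chromosome 7, 76302673 to 76304295), the small heat shock protein HSP27, was at 159, 93.8 and 84.6 CPM in ALDH_High and at 157, 118 and 131 CPM in ALDH_Low. In CPM, ALDH_High library 1 was the highest of all 6 by a small margin, and the other ALDH_High libraries were the lowest. In TPM, ALDH_Low library 1 was the highest, at 299 against 285 in ALDH_High library 1. The log2 fold change was -0.27 (SE 0.22, interval -0.76 to 0.22, edgeR adjusted p 0.454). Without ALDH_High library 1 it was -0.58 and passed (edgeR adjusted p 0.0140), and without library 1 of both groups it was -0.46 (0.0235).

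**Figure D3:**
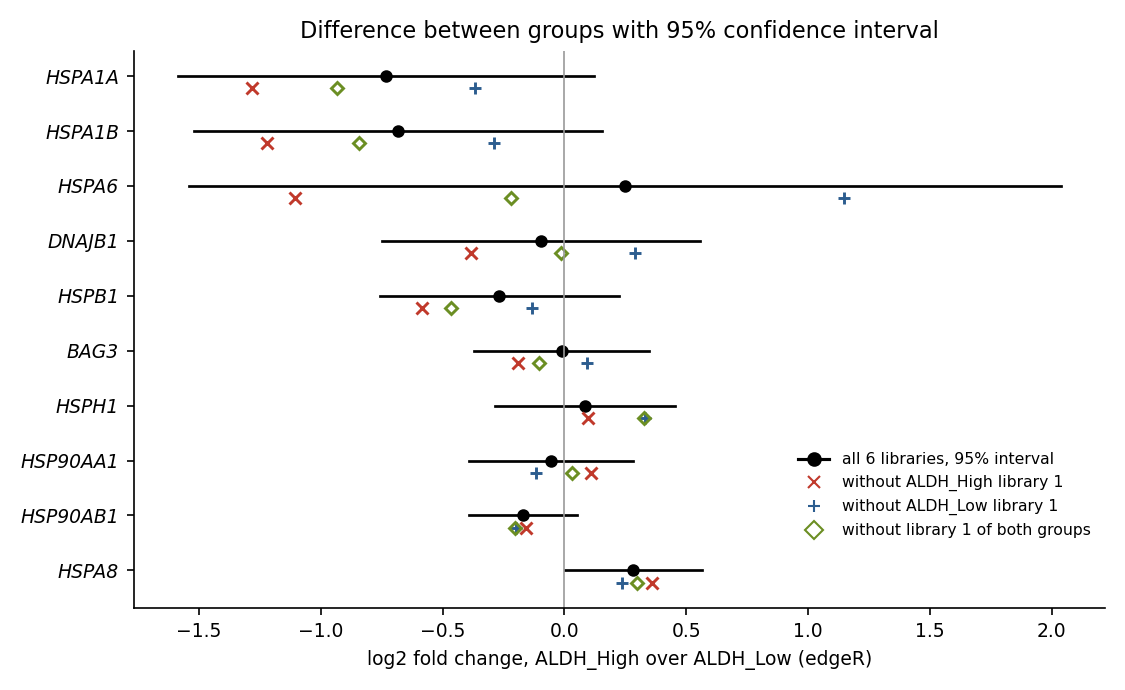
Log2 fold change (ALDH_High over ALDH_Low) of the 10 genes with the 95% confidence interval from all 6 libraries, and the estimates without ALDH_High library 1, without ALDH_Low library 1 and without both. The estimates without 1 library lie on opposite sides of the full one for HSPA1A (-1.28 and -0.37) and HSPA6 (-1.11 and 1.15).

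The spread between libraries of the same group was widest for HSPA6, HSPA1A, HSPA1B and DNAJB1 and narrowest for HSP90AB1 among the 10 genes. Over the 11030 genes that averaged 5 CPM or more, the median SD of log2 CPM within groups was 0.17. The SD was 1.64 for HSPA6, 0.71 for HSPA1A, 0.69 for HSPA1B, 0.54 for DNAJB1 and 0.38 for HSPB1, at percentiles of 99.95, 99.1, 99.1, 97.8 and 93.2 of those genes. It was 0.26 for HSPH1, 0.25 for BAG3 and 0.23 for the inducible HSP90AA1, at percentiles of 78.8, 76.2 and 72.5. It was 0.16 for HSPA8, near the median of all genes (percentile 46.0), and 0.065 for HSP90AB1 (percentile 3.72). In all, 8 of the 10 genes lay above the median SD. Library 1 exceeded the mean of the other libraries of its group by 5.82-fold in ALDH_High and 3.49-fold in ALDH_Low for HSPA6, by 2.45-fold and 1.83-fold for HSPA1A, and by 1.70-fold and 1.88-fold for DNAJB1. For HSPA8 it was below that mean, at 0.878 and 0.879 of it, and for HSP90AA1 at 0.709 and 0.842.

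**Figure D4:**
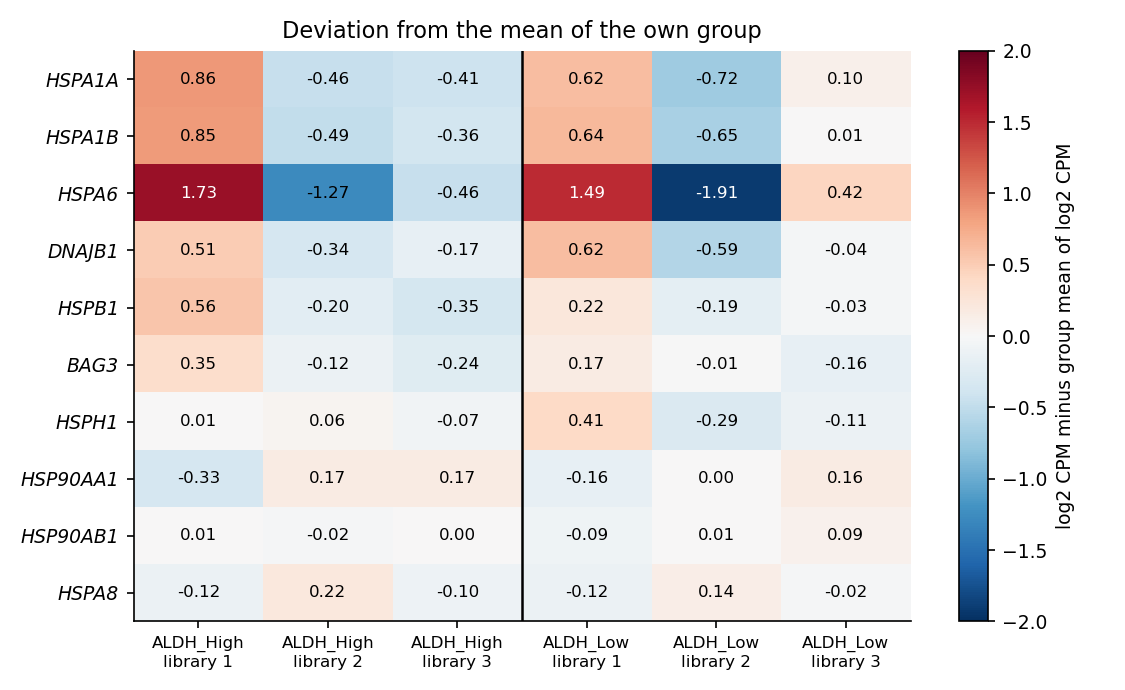
Log2 CPM of each gene in each library minus the mean of its own group. Library 1 of both groups is above its group mean for HSPA1A, HSPA1B, HSPA6, DNAJB1, HSPB1, BAG3 and HSPH1. HSPA6 is at 1.73 and 1.49, and HSPH1 at 0.012 and 0.41, in ALDH_High and ALDH_Low. Library 1 of both groups is below its group mean for HSP90AA1 and HSPA8.

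Library 1 was the highest of its group in both groups for 6 of 10 genes (HSPA1A, HSPA1B, HSPA6, DNAJB1, HSPB1 and BAG3). This held for 15.7% of the 11030 genes averaging 5 CPM or more. HSPA1A and HSPA1B are near copies that can share reads, so they are not separate measurements in this count. The labels do not say that libraries with the same number were made together. Library 1 had the lowest total count of ALDH_High and the highest of ALDH_Low, and the part of depth in this pattern was not tested. Immediate early genes, which respond within minutes to growth signals and to handling of cells, moved alongside. Library 1 was the highest in both groups for 11 of 16 of them, and their summed level was 2039, 1128 and 1250 CPM in ALDH_High and 2762, 1578 and 1774 CPM in ALDH_Low. Their part in the spread of the chaperone genes was not tested. For mitochondrially encoded genes the count was 6 of 13, with 12704 to 15850 CPM summed in ALDH_High and 19097 to 29206 CPM in ALDH_Low.

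Other genes of the heat shock pathway were read from the same test, in which 10.8% of all genes rose and 9.83% fell. Of 4 heat shock factors and regulators, 0 passed: HSF1, the master regulator, averaged 126 ± 21.0 CPM in ALDH_High, next to 112 ± 4.34 CPM in ALDH_Low (SD, n = 3; edgeR log2 fold change 0.16, adjusted p 0.434). HSF2, a second heat shock factor, had a log2 fold change of 0.078 and HSF4 one of -0.11. HSBP1, which binds the trimer of HSF1, had the lowest p of the 4 (log2 fold change 0.42, edgeR adjusted p 0.0864). HSBP1 was also the only 1 of the 4 with an unadjusted p below 0.05, and the only 1 that DESeq2 called (0.44, DESeq2 adjusted p 0.0453), while limma called 0. Of 16 other heat-inducible targets of HSF1, 1 rose and 1 fell, and the median log2 fold change was 0.011. DESeq2 called 1 of them and limma 0: CRYAB did not pass with DESeq2 (adjusted p 0.103), and IER5 did not pass with limma on log2(TPM + 1) (adjusted p 0.0711). IER5, an immediate early gene whose product activates HSF1, fell from 155 ± 31.7 CPM in ALDH_Low to 93.2 ± 32.2 CPM in ALDH_High (SD, n = 3), a log2 fold change of -0.74 with an edgeR adjusted p of 0.0446. It did not pass without ALDH_High library 2 or 3 or ALDH_Low library 1 or 3 (edgeR adjusted p 0.134 to 0.162). CRYAB, the alpha-B crystallin, rose from a very low level, with 21, 13 and 12 counts in ALDH_High and 6, 4 and 4 in ALDH_Low (log2 fold change 1.78, edgeR adjusted p 0.0343), and did not pass without ALDH_High library 1 or 2 or any 1 of the ALDH_Low libraries (0.0554 to 0.121). DEDD2 had a log2 fold change of -0.31 (edgeR adjusted p 0.301).

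Of 7 small heat shock proteins other than HSPB1, 4 were expressed highly enough to be tested, of which 1 rose and 2 fell. HSPB8, which forms a complex with BAG3 that sends misfolded proteins to autophagy, fell to 5.13, 2.87 and 3.28 CPM in ALDH_High from 33.3, 23.6 and 21.9 CPM in ALDH_Low. No ALDH_High value came near an ALDH_Low value, and the log2 fold change was -2.82 (SE 0.25, edgeR adjusted p 4.71e-05). It passed under every alternative tried, with values between -3.08 and -2.35. HSPB3 fell as well, to 0.516 ± 0.145 CPM in ALDH_High from 1.32 ± 0.242 CPM in ALDH_Low (SD, n = 3; edgeR log2 fold change -1.32, adjusted p 0.0256), but did not pass without any 1 of the ALDH_High libraries or ALDH_Low library 2 or 3 (0.0501 to 0.0993). The gene that rose was CRYAB, which did not pass with DESeq2 (adjusted p 0.103), and HSPB6 did not pass (0.22, edgeR adjusted p 0.734). BAG3 itself, the partner of HSPB8, was at nearly the same level in both groups, as given above.

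Among exchange factors, 1 of 6 other BAG family and related genes changed. BAG2, which inhibits the ubiquitin ligase STUB1, fell to 27.8, 27.2 and 22.7 CPM in ALDH_High from 41.3, 38.7 and 40.2 CPM in ALDH_Low, a log2 fold change of -0.63 ± 0.12 (SE) with an edgeR adjusted p of 0.00501. The groups were well apart, and BAG2 passed under every alternative tried (edgeR, DESeq2 or limma adjusted p up to 0.0342). BAG1 had a log2 fold change of -0.33 (edgeR adjusted p 0.0602), HSPBP1 -0.26, BAG6 -0.13, BAG4 0.36 and BAG5 0.047. Of the HSP90 co-chaperones, 0 of 13 passed (median log2 fold change 0.039), with the lowest adjusted p at 0.184 for ST13, the HSP70-interacting protein HIP (log2 fold change 0.21, edgeR). STUB1, the ligase that ubiquitinates chaperone clients, was at -0.26 and UNC45A, a myosin chaperone, at -0.22. Of the 8 subunits of the TRiC chaperonin, which folds actin and tubulin, 0 passed (median -0.036), and CCT4, CCT5 and CCT6A had log2 fold changes of -0.13, -0.068 and -0.11. Of 10 mitochondrial chaperones and proteases, 0 passed (median -0.021), and HSPA9, HSPE1 and GRPEL1 had log2 fold changes of -0.18, -0.16 and 0.14. For these 3 lists (HSP90 co-chaperones, TRiC and mitochondrial chaperones) the count was also 0 at an unadjusted p below 0.05 and 0 with DESeq2 and limma.

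Of 13 chaperones of the endoplasmic reticulum (ER), 6 rose and 0 fell, beside 10.8% of all genes that rose, and their median log2 fold change was 0.40. CRELD2, a protein induced by ER stress, averaged 42.8 ± 6.63 CPM and 22.01 ± 1.19 CPM in the groups (SD, n = 3; edgeR log2 fold change 0.96, adjusted p 0.000914). PDIA6, a disulfide isomerase, was at 446 ± 11.8 against 307 ± 5.08 CPM (0.54, edgeR adjusted p 0.0031), and DNAJC3, a J-domain protein of the ER lumen, at 62.6 ± 3.09 against 41.7 ± 4.11 CPM (0.58, edgeR adjusted p 0.00562). DNAJC3 lies on chromosome 13, where the 185 genes averaging 5 CPM or more had a median log2 fold change of 0.37. The part of this shift in the value of DNAJC3 was not tested. HYOU1, the HSP110 of the ER, had a log2 fold change of 0.42 (edgeR adjusted p 0.0238), and DNAJB11, the ER J-domain protein, one of 0.40 (0.0372). HYOU1 missed the threshold without ALDH_High library 2 or ALDH_Low library 1 or 3 (edgeR adjusted p 0.0692 to 0.0819), and DNAJB11 without ALDH_High library 2 or 3 or ALDH_Low library 1 or 2 (0.0620 to 0.129). The sixth was PDIA4, named after its value was seen (0.54, edgeR adjusted p 0.00725). HYOU1 was also the only 1 of 11 further HSP70 and HSP110 entries to pass with edgeR (HSPA14 is entered under a pair of identifiers), and HSPA12A and HSPA13 had log2 fold changes of 0.61 (edgeR adjusted p 0.0507) and 0.35 (0.122). DESeq2 called 2 of these entries, and HSPA12A passed with it (DESeq2 adjusted p 0.0182), with DESeq2 size factors in edgeR (0.0483) and without ALDH_High library 1 (0.0191) or ALDH_Low library 2 (0.0440). DNAJB11 was the only 1 to pass with edgeR among 11 tested class A and B J-domain genes, and DNAJB12 and DNAJB4 were at 0.20 and -0.48. DNAJA4 was too low to be tested.

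**Figure D5:**
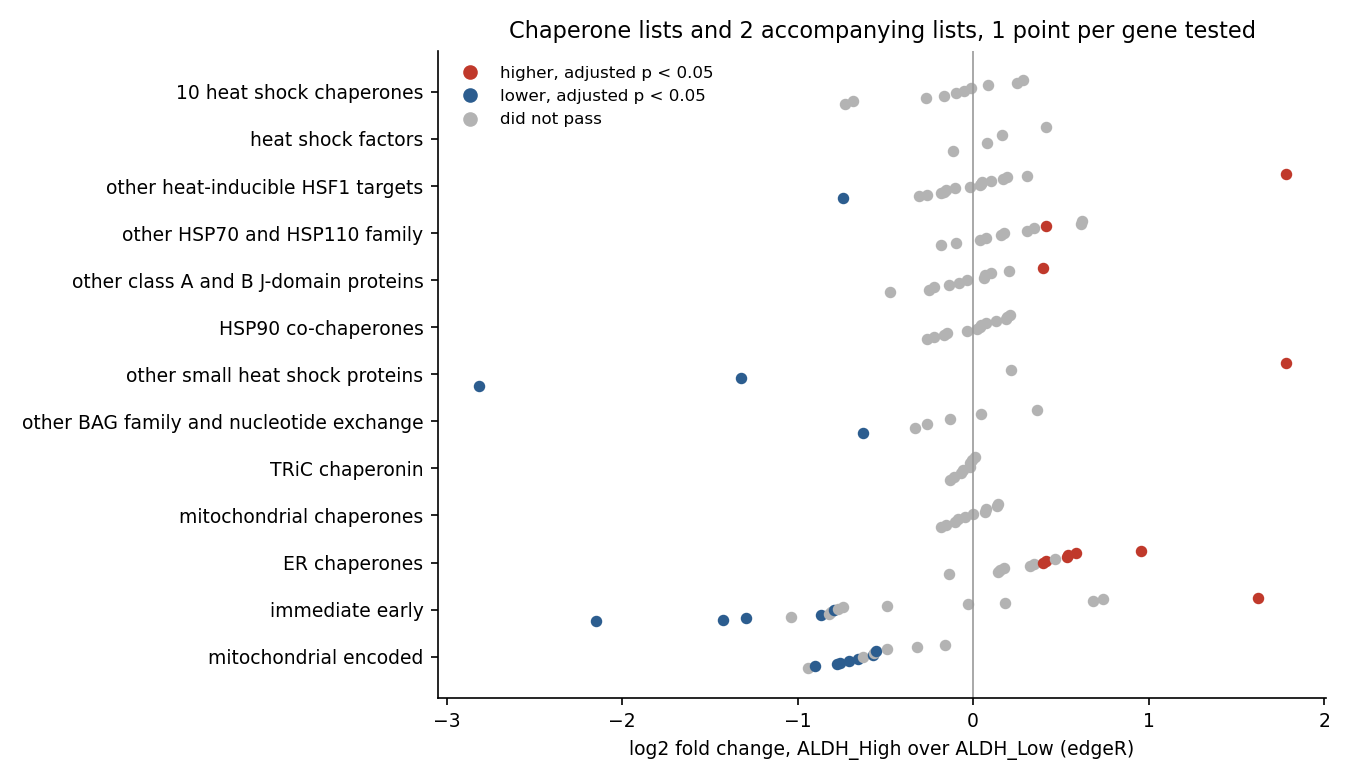
Log2 fold change (ALDH_High over ALDH_Low) of each tested gene in the 10 heat shock chaperones and in 12 related lists, coloured where the adjusted p is below 0.05; some genes belong to more than 1 list. The 10 heat shock chaperones are all grey, 6 ER chaperones are red, and HSPB8 is the blue point at -2.82.

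Of the 16 immediate early genes given above, 1 rose, 5 fell and 10 did not pass, beside 10.8% of all genes that rose and 9.83% that fell, and their median log2 fold change was -0.78. The 5 that fell were ATF3 (-2.15, edgeR adjusted p 0.00161), DUSP1 (-1.42), ZFP36 (-1.29), MYC (-0.86) and JUNB (-0.79), the last 3 named after their values were seen. EGR3 rose (1.62, edgeR adjusted p 0.000314). Of 13 mitochondrially encoded genes 0 rose and 7 fell (median -0.63), beside 9.83% of all genes that fell, among them MT-ND4 (-0.76), MT-ND1 (-0.70) and MT-CO2 (-0.90), while limma on TPM called 2 of the 13. MT-CO2 did not pass without ALDH_High library 2 or 3 or ALDH_Low library 1 or 3 (edgeR adjusted p 0.0653 to 0.0942).

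The genes whose level over the 6 libraries was most like the mean scaled level of the 10 were MT-ND3 (Pearson r = 0.993), STX1A (0.986), ST8SIA4 (0.975), IQSEC2 (0.969) and CMC1 (0.968), out of 11013 genes. These are correlations over 6 libraries that fall into the groups, given as a description. MT-ND3 was at 438, 288 and 281 CPM in ALDH_High and at 465, 290 and 371 CPM in ALDH_Low. As for HSPA1A, library 1 was the highest of both groups and ALDH_Low library 3 lay between the other ALDH_Low libraries. None of these 5 differed between groups, with edgeR adjusted p between 0.404 and 0.684.

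In the authors' deposited table, a model of 5 groups gives log2 coefficients of the high and low groups against a group named 1A3. In the authors' deposited table the high coefficient minus the low one was -0.71 for HSPA1A, -0.66 for HSPA1B and -0.24 for HSPB1. The authors' deposited table gives differences of 0.30 for HSPA8, 0.29 for HSPA6 and 0.11 for HSPH1, and differences between -0.15 and 0.01 for HSP90AB1, DNAJB1, HSP90AA1 and BAG3. Relative to group 1A3, the authors' deposited table has coefficients of -0.47 and 0.24 for HSPA1A and of 0.016 and 0.68 for HSPA1B in the high and low groups, a gap between near-identical copies that was not seen between ALDH_High and ALDH_Low. Among the 10 genes, the authors' deposited table has its largest coefficients in either direction for HSPA6 (1.48 and 1.19) and HSPB1 (-1.04 and -0.79). The libraries of group 1A3 were not analysed here.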

How the data were processed

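RNA of 3 ALDH_High and 3 ALDH_Low libraries was sequenced after TruSeq stranded mRNA preparation, per the labels' protocols. The submitters' processing notes name FastQC 0.11.3, STAR 2.5.1b, HTSeq 0.6.1, DESeq2 and GRCh38, without the role of each or an annotation release. The authors deposited whole-number counts that were treated as estimated counts rounded to whole numbers, since between 133 and 177 genes per library had a count of 0 beside a TPM above 0. The authors also deposited TPM values, which add up to 1000000 per library, and log2 coefficients of a model over 5 groups. That model was DESeq2, per the file headers. Rows without a gene name numbered 261 (0.0213% to 0.0267% of counts), and stayed in because they carry identifiers. How reads shared by near copies were counted is not given in the sources used here.

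Genes were kept with filterByExpr (17047), scaled with TMM and tested with edgeR 4.0.16 (glmQLFit, glmQLFTest, two-sided, no replicate block) in R 4.3.3. p-values were adjusted by Benjamini-Hochberg over all genes tested, with a threshold of 0.05. The SE is the log2 fold change over the square root of F. Single genes were also compared by exact two-sided permutation of log2 CPM. On simulated counts for this comparison (16704 genes), 66.3% of genes changed by 1 on the log2 scale and 96.0% of those changed by 2 were recovered, and 6.94% of calls were false. Libraries of the same group differed by more than sampling noise (chi-square per degree of freedom 13.5 to 56.1). Intervals cover the spread between libraries, and reads carried no molecular identifiers.

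The 10 genes and all lists were chosen with earlier results of these data known. Named genes were the 10, the near copies HSPA1L and HSPA7, the 3 genes of smallest p in each related list with 8 or more tested genes, all tested genes of shorter lists, and the 5 most similar genes. Positions are from GENCODE 44 (GRCh38), promoter windows from RefSeq (GRCh38.p14), and coding sequences from GENCODE 44 transcripts. A planned comparison of proteins was replaced by one of coding sequences. Alternatives were edgeR with size factors of DESeq2 or with upper-quartile scaling, omission of the filter or a floor of 10 counts per library, the replicate block, each library left out, DESeq2 1.42.0, limma 3.58.1 on log2(TPM + 1) and log2(TPM + 0.1), an adjusted p of 0.01, and HSPA1A and HSPA1B summed.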

Additional observations from a re-analysis of the deposited data

How the results depend on the processing

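Of the 10 heat shock chaperones, 0 passed in the main test and under the other scalings, the stricter filter or threshold, DESeq2 and limma. Without a low-count filter 2 passed (HSPA1A and HSPA1B, lower in ALDH_High; edgeR adjusted p 1.31e-06 and 8.35e-06). With each library left out the count was between 0 and 4, and the 4 came without ALDH_High library 1. Leaving out library 1 of both groups, an alternative chosen after seeing the data, gave 3 (HSPA1A, HSPA1B and HSPB1, lower), where 22.8% of all genes passed. With the replicate number as a block, 2 passed (HSPA1A, log2 fold change -0.77, edgeR adjusted p 0.00878, and HSPA1B, -0.72, 0.00571), as did 3748 of the 17047 genes tested, of which 3330 had also passed without the block. The numbers were not taken as pairs: same-numbered libraries deviated together with correlations of 0.15, 0.076 and 0.11, although each library correlated best with its own number. Over all genes, 3513 calls became 2006 when limma was run on all genes with any TPM, 1930 at an adjusted p of 0.01, and 2488 to 4221 with each library left out; upper-quartile scaling turned the split of 1838 higher and 1675 lower into 1644 and 1931. Of 110 related rows, 24 passed, where 20.6% of all genes tested passed. Without a low-count filter 38 related rows passed, where 12.9% of all genes did. The count of related rows was 12 with that limma fit, 36 with the block, and 16 to 35 with each library left out.

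Directions that turned all belonged to differences that did not pass. With each library left out, the log2 fold change lay between -1.11 (without ALDH_High library 1) and 1.15 for HSPA6, between -0.053 (without ALDH_Low library 2) and 0.33 for HSPH1, between -0.38 and 0.29 (without ALDH_Low library 1) for DNAJB1, between -0.12 and 0.11 (without ALDH_High library 1) for HSP90AA1, and between -0.19 and 0.12 (without ALDH_High library 3) for BAG3. BAG3 also turned to 4.1e-05 without a filter, 0.0088 with DESeq2 and 0.022 with each limma fit. Of the related genes, the ranges with each library left out were -0.0016 to 0.17 for HSF2, -0.37 to 0.24 for HSF4, 0.0016 to 0.41 for HSPB6, -0.025 to 0.18 for BAG5, -0.21 to 0.014 for CCT6A, -0.38 to 0.035 for MT-ND3 and -0.37 to 0.039 for ST8SIA4, and BAG5 was at -0.0014 with upper-quartile scaling. Without library 1 of both groups, the values that turned were -0.22 for HSPA6, 0.032 for HSP90AA1, 0.0077 for HSF4, -0.023 for HSPB6 and 0.017 for CCT6A. Why these values moved was not tested. Low counts limit what can be said of HSPA7 and DNAJA4, which were not tested, and of CRYAB, HSPB3, HSPB6 and HSPA1L, which had at most 67 counts in any library.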
